A study of Mus musculus with 2 samples.

Results

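The cells described here were cartilage cells of the Ctsk-Cre lineage, divided by whether their transcriptome held Cd200. They were single cells sorted into wells from the femur of C57/B6 mice at postnatal day 6, of genotype CTSK-cre+ mTMG. In such mice the promoter of Ctsk, the gene of cathepsin K, drives Cre, and Cre switches a reporter gene from red to green membrane fluorescence, so green cells are those in which Cre has acted at any time. The femurs came from 2 littermates, and the cells of each animal filled their own 384-well plate, named 47 and 48 in the labels. Animal and plate therefore cannot be told apart, and no animal without the Cre was part of the comparison.

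A well was kept if it held at least 500 detected genes and at most 20% mitochondrial counts, which left 653 of 658 wells. A kept well was taken as cartilage if the summed level of Ucma, Matn3, Col9a1 and Lect1 reached 4000 CPM, the counts of a gene per 1000000 counts of that well, which gave 180 wells. Of these, 66 held at least 50 CPM of Cd200 and are called Cd200-expressing, 35 on plate 47 and 31 on plate 48. Another 101 held no Cd200 count and are called Cd200-silent, 38 on plate 47 and 63 on plate 48. The remaining 13 cartilage wells, 6 and 7 on plates 47 and 48, held Cd200 below the minimum and entered neither group.

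CD200 is a cell surface glycoprotein of the immunoglobulin superfamily. It binds an inhibitory receptor, CD200R1, found mainly on myeloid cells, which signals through Dok adaptor proteins and the Ras GTPase-activating protein Rasa1. In the mouse skeleton, antibodies to CD200 are used with other surface markers to sort skeletal stem and progenitor cells. Growing cartilage holds a resting zone, a zone of dividing cells and a zone of enlarged hypertrophic cells that borders on bone, with the fibrous perichondrium around it.

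Cd200 (ENSMUSG00000022661, chromosome 16, 45382135 to 45409053, minus strand, mm10) and the 4 genes of the cartilage rule are not tested, because the wells were chosen by their levels, and their values are a description. In the expressing wells Cd200 ran between 57.4 and 1915 CPM on plate 47, with a median of 427 CPM. On plate 48 the expressing wells ran between 51.1 and 1816 CPM, with a median of 357 CPM. The wells nearest to the minimum on the other side held 45.5 and 30.4 CPM on plates 47 and 48. The cartilage sum just inside its own minimum was 4102 and 4041 CPM on plates 47 and 48, and just outside it was 3801 and 3983 CPM. A well without a Cd200 count is not shown to lack the transcript. A count of 0 allows up to 3 counts, which is a median of 32.02 and 26.7 CPM in the silent wells of plates 47 and 48, and more than 50 CPM in 3 and 5 of them.

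**Figure D1:**
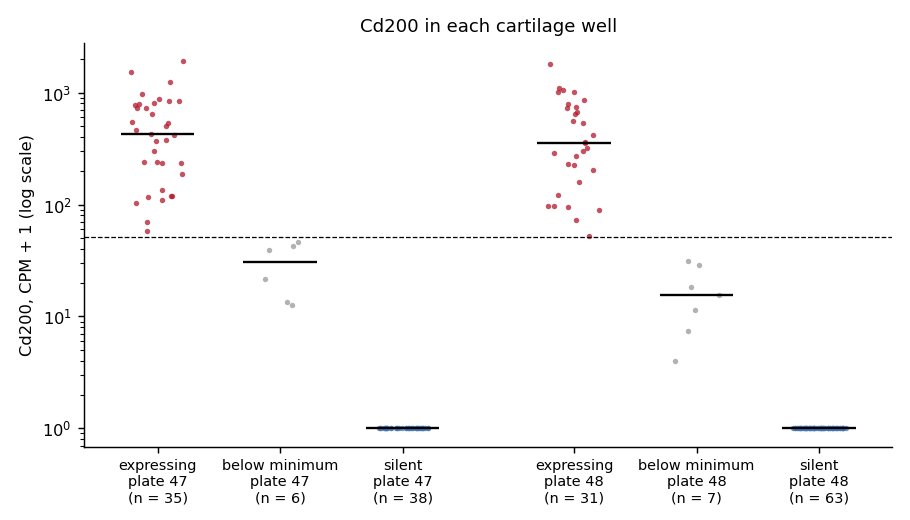
Cd200 in each cartilage well, as CPM plus 1 on a log axis, by class and plate; the black bars are medians and the dashed line is the minimum of 50 CPM. The expressing wells of both plates spread from 51.1 to 1915 CPM, and all silent wells lie at 0.

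The expressing wells made up 44.3% of the cartilage wells of plate 47 (95% exact Clopper-Pearson interval 33.1 to 55.9%) and 30.7% of those of plate 48 (21.9 to 40.7%). Among the wells under the cartilage minimum, 24.3% on plate 47 (18.97 to 30.2%) and 20.5% on plate 48 (15.5 to 26.3%) held Cd200 at the same minimum. These intervals cover counting error only. The expressing wells were also the deeper ones, with a median of 121886 and 149496 counts on plates 47 and 48, against 93689 and 112157 counts in the silent wells. They held a median of 2537 and 2466 genes, against 2084.5 and 2068 genes in the silent wells. The mitochondrial share was similar, with medians of 3.22% and 2.69% in expressing wells and 3.63% and 3.21% in silent wells. Wells were therefore also compared after thinning each one to 10000 counts.

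Cartilage genes outside the rule were present in both groups. Col2a1, the main fibrillar collagen of cartilage, was present in every well of both groups, at 15659.6 and 16186 CPM in expressing wells and 13542 and 11083 CPM in silent wells. The chondrocyte transcription factor Sox9 stood at 379 and 387 CPM in expressing wells and 348 and 289 CPM in silent wells. Defining genes of endothelium, macrophages, blood and muscle were at or near 0. The 7 endothelial genes together reached 0.569 and 13.3 CPM in expressing wells, against 14.9 and 0 CPM in silent wells. The 10 genes of macrophages and osteoclasts reached 21.0 and 71.1 CPM in expressing wells and 26.6 and 16.9 CPM in silent wells. Genes of tendon and ligament were not near 0. The 7 listed summed to 2728 and 2120 CPM in expressing wells and 3172 and 2652 CPM in silent wells. Every well of both groups held a count of them, and the highest well, a silent one of plate 47, reached 11464 CPM. Ctsk itself was at 56.3 and 98.2 CPM in expressing wells and 78.3 and 72.9 CPM in silent wells, so its level overlapped between the groups.

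The test asked whether any gene other than those of the rule differed between the groups. Counts were summed over the wells of each plate and class, and the sums were compared with edgeR's quasi-likelihood test with plate as a block, adjusted over 13537 genes. No gene passed an adjusted p of 0.05 in either direction, so the percentage called was 0%. At an unadjusted p under 0.05, 158 genes (1.17%) were higher and 253 genes (1.87%) lower in expressing wells, 411 in all (3.04%). DESeq2 on the same sums called 44 genes, 20 higher (0.148%) and 24 lower (0.177%). The edgeR test after thinning called 5 of 6631 genes (0.0754%). They were Ibsp, Sgms2 and Chad, higher (3 genes, 0.0452%), and Postn and Tmsb4x, lower (2 genes, 0.0302%). Ibsp, Sgms2 and Postn were called by both of these. By size alone, 211 of 5886 widely detected genes (3.58%) were at least 2-fold higher on both plates and 145 (2.46%) at least 2-fold lower. Widely detected means a count in at least 10% of the wells of either group on each plate. Of the 44 genes called by DESeq2, 12 were widely detected. Only 2 animals stand behind each group, and no exact permutation test over 2 animals can pass 0.05.

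The plates shared little of the difference across genes. Over 5809 genes counted in all 4 sums, the log2 ratios of expressing to silent wells had the same sign on both plates in 52.6%, with a Pearson r of 0.0527 across genes. Over the 1361 of these with a mean of at least 100 CPM, the sign was shared by 55.3% and r was 0.276. Genes are not independent replicates, so these are descriptions. The genes named next are the 8 of lowest p in each direction that had the same sign on both plates and were widely detected. None of the 16 passed the edgeR test before thinning, and their values are given as such. DESeq2 called 9 of the 16, which were Cbx6, Cd34, Cdk2ap2, Hes1, Ibsp, Igf1, Osbpl5, Sgms2 and Sulf1.

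Among the genes higher in expressing wells, the lowest p belonged to Ibsp, which encodes bone sialoprotein, a mineral-binding protein of bone and hypertrophic cartilage (ENSMUSG00000029306, chromosome 5, 104299171 to 104311469, plus strand). Ibsp stood at 290 and 36.0 CPM in the expressing wells of plates 47 and 48, against 1.77 and 0.644 CPM in the silent wells. Both plates had the expressing wells higher, as the naming rule requires, but few wells carried the transcript. It reached 50 CPM in 4 of 35 and 3 of 31 expressing wells and in 0 of 38 and 0 of 63 silent wells, where a count of 0 allows a share of up to 7.89% and 4.76%. A single well held 59.3% of all its counts in the cartilage wells compared. The fitted log2 fold change was 6.60 ± 0.94 (SE, unadjusted p = 8.83e-05, adjusted p = 0.597), and 5.96 with the highest well of each class and plate set to the next highest. At a cartilage minimum of 10000 CPM it was 3.55 (unadjusted p = 0.0683).

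Sgms2, a sphingomyelin synthase gene whose human counterpart is mutated in an inherited bone fragility (chromosome 3, 131318985 to 131491411, minus strand), followed the same pattern over more wells. It stood at 274 and 152 CPM in expressing wells, against 0.507 and 8.37 CPM in silent wells. It reached 50 CPM in 9 and 8 expressing wells, 25.7% and 25.8%, against 0 and 2 silent wells, 0% and 3.17%. The log2 fold change was 5.26 ± 1.29 (SE, unadjusted p = 0.00415). On plate 47 the silent side rests on 2 counts. All 13 cartilage wells below the Cd200 minimum had 0 counts of Sgms2.

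Hes1, a transcriptional repressor and a classic target of Notch signalling, was present in more of the expressing wells than the sparse genes above (chromosome 16, 30064384 to 30067796, plus strand). It stood at 294 and 632 CPM in expressing wells, against 103 and 133 CPM in silent wells. It reached 50 CPM in 45.7% and 71.0% of expressing wells (intervals 28.8 to 63.4% and 52.0 to 85.8%), against 13.2% and 28.6% of silent wells (4.41 to 28.1% and 17.9 to 41.3%). After thinning to 10000 counts, 45.7% and 67.7% of expressing wells still held a Hes1 count, against 10.5% and 28.6% of silent wells. The log2 fold change was 1.84 ± 0.47 (SE, unadjusted p = 0.00392), and both plates had the expressing wells higher.

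Chad, the gene of chondroadherin, a leucine-rich protein of cartilage matrix that binds collagen and integrin, was an abundant gene of this group (chromosome 11, 94565047 to 94569127, plus strand). It stood at 2568 and 3058 CPM in expressing wells, against 1291 and 1151 CPM in silent wells. The medians over single wells were 1549 and 2635 CPM in expressing wells and 662 and 939 CPM in silent wells, so the difference did not come from a few wells, although the ranges of single wells overlapped. The log2 fold change was 1.10 ± 0.22 (SE, unadjusted p = 0.000937). Cst3, which encodes the secreted cysteine protease inhibitor cystatin C, stood at 6165 and 7528 CPM in expressing wells and 4622 and 3697 CPM in silent wells, with a log2 fold change of 0.64 ± 0.16. Cystatin C inhibits cathepsins, cathepsin K among them.

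The other 3 genes of this direction were sparse. Cdk2ap2, which encodes a partner of the cell cycle kinase Cdk2, stood at 75.3 and 93.7 CPM in expressing wells and 26.9 and 15.2 CPM in silent wells. Cbx6, a chromobox gene of the Polycomb system, stood at 15.5 and 25.2 CPM in expressing wells and 1.27 and 0.902 CPM in silent wells. Osbpl5, an oxysterol-binding protein-like gene, stood at 18.96 and 36.8 CPM in expressing wells, against 0 and 0.644 CPM in silent wells. Each of the 3 had a count in at most 7 of the expressing wells of a plate.

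**Figure D2:**
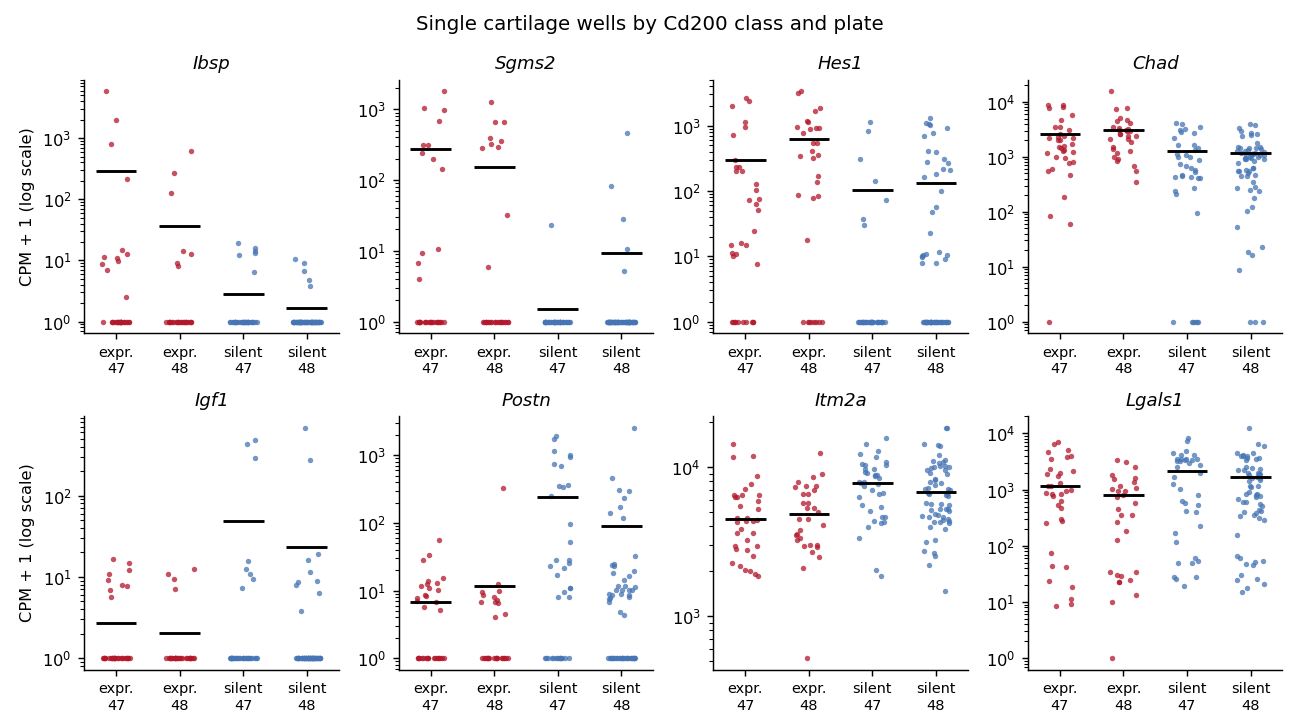
Level of 8 genes in each cartilage well, as CPM plus 1 on a log axis, in Cd200-expressing and Cd200-silent wells of plates 47 and 48; black bars are the CPM of the summed counts plus 1. Ibsp and Sgms2 rest on a minority of expressing wells, and Chad, Itm2a and Lgals1 are shifts of the bulk of the wells that overlap between groups.

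Among the genes lower in expressing wells, the lowest p belonged to Igf1, the gene of insulin-like growth factor 1 (chromosome 10, 87858265 to 87937042, plus strand). Igf1 stood at 1.71 and 1.06 CPM in expressing wells, against 47.6 and 22.5 CPM in silent wells. It reached 50 CPM in no expressing well and in 3 and 2 silent wells, so the difference rests on 5 silent wells. All 5 of these also held Postn, a fibroblast marker described below, at 344 to 2531 CPM, and 3 of them had no Chad count. The log2 fold change was -4.68 ± 0.57 (SE, unadjusted p = 2.93e-05, adjusted p = 0.397).

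The abundant genes lower in expressing wells differed by less, but over most wells. Itm2a, an integral membrane protein gene expressed in early chondrocytes, stood at 4495 and 4858 CPM in expressing wells, against 7745 and 6749 CPM in silent wells. Its well medians were 4360 and 4459 CPM in expressing wells and 7855 and 6530 CPM in silent wells. The log2 fold change was -0.71 ± 0.11 (SE, unadjusted p = 0.000146, adjusted p = 0.658). Lgals1, the gene of the sugar-binding protein galectin-1, stood at 1171 and 797 CPM in expressing wells, against 2131 and 1641 CPM in silent wells, a log2 fold change of -1.03 ± 0.17. Gnas, the stimulatory G protein alpha subunit through which the parathyroid hormone-related protein receptor acts, stood at 1722 and 1739 CPM in expressing wells, against 2536 and 2680 CPM in silent wells. Rpl4, a protein of the large ribosomal subunit, stood at 2536 and 2477 CPM in expressing wells and 3223 and 3220 CPM in silent wells. Ppib, a prolyl isomerase that folds collagen in the endoplasmic reticulum, stood at 1793 and 1866 CPM in expressing wells and 2518 and 2269 CPM in silent wells. Both plates had the silent wells higher for each of these genes, as the naming rule requires.

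Sulf1, an extracellular heparan sulfate sulfatase, and Cd34, a surface sialomucin of fibroblasts, endothelium and blood progenitors, completed the 8. Sulf1 stood at 0.948 and 2.96 CPM in expressing wells and 10.1 and 17.3 CPM in silent wells. Cd34 stood at 0.948 and 1.69 CPM in expressing wells, against 5.57 and 15.7 CPM in silent wells, and 1 well held 71.3% of its counts. With the highest well of each class and plate set to the next highest, the log2 fold change of Cd34 was -0.27, against -2.99 with all wells as counted.

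**Figure D3:**
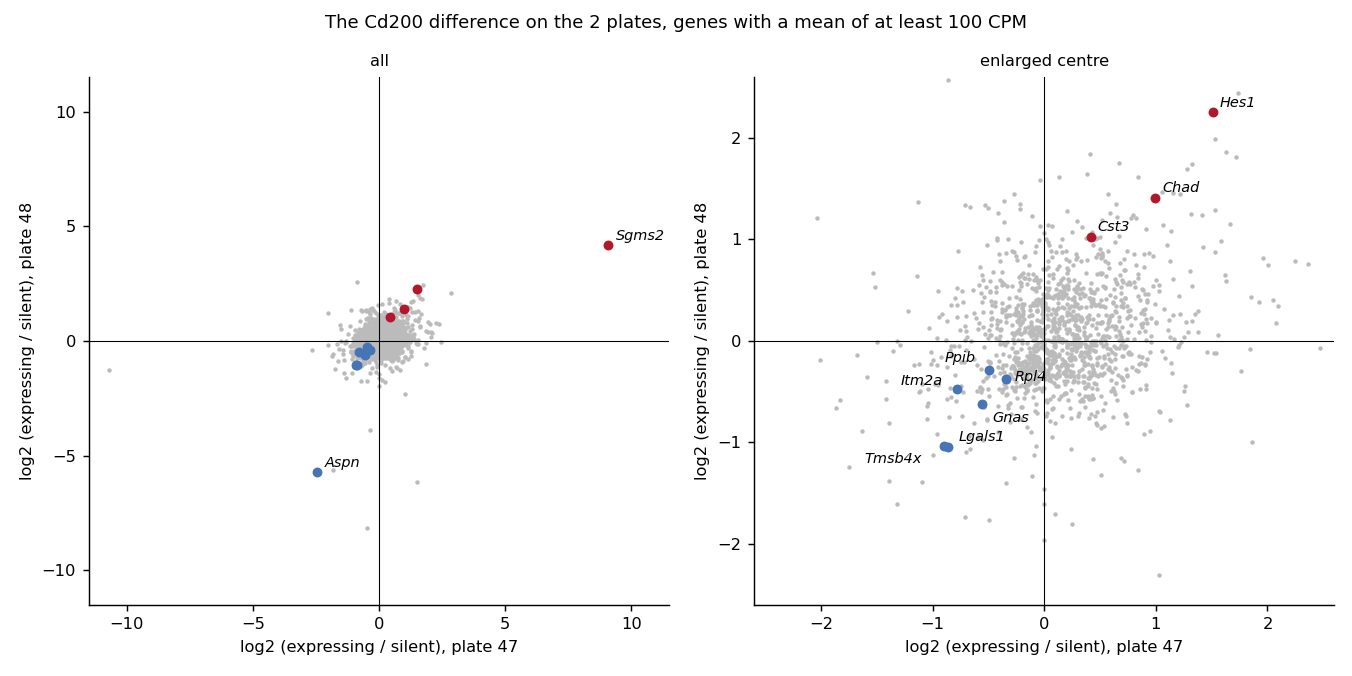
Log2 ratio of Cd200-expressing to Cd200-silent wells on plate 47 (x axis) and plate 48 (y axis), for genes with a mean of at least 100 CPM in grey, whole range on the left and enlarged centre on the right; the named genes at that level are coloured, red where higher and blue where lower on plate 47. Most genes scatter around 0 without order between plates (r of 0.276), while Hes1, Chad and Cst3 lie up and to the right and Lgals1, Tmsb4x, Itm2a, Gnas, Ppib and Rpl4 down and to the left; the place of Sgms2 on plate 47 rests on 2 counts in silent wells.

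Genes of hypertrophic cartilage and bone were described as a list of 18, of which 16 were tested. Ihh and Ibsp had an unadjusted p under 0.05 in the higher direction and Vegfa in the lower, and the median log2 fold change of the 16 was 0.67, against -0.07 over all genes tested, of which 46.9% had a positive and 53.1% a negative log2 fold change. At that p, 1.17% of all genes tested were higher and 1.87% lower, the shares to set beside the counts of each list below. Ihh, the Indian hedgehog ligand of prehypertrophic cells, had 71 and 39 counts in expressing wells and 0 and 0 in silent wells, but it was present in only 2 and 1 expressing wells. Runx2, the transcription factor that drives hypertrophy and bone formation, stood at 65.6 and 81.9 CPM in expressing wells and 41.0 and 11.3 CPM in silent wells, and reached 50 CPM in 28.6% and 22.6% of expressing wells against 13.2% and 4.76% of silent wells. Mef2c, its partner in hypertrophy, stood at 102 and 120 CPM in expressing wells and 61.3 and 52.2 CPM in silent wells. Neither passed at an unadjusted p under 0.05. Col10a1, the collagen that defines hypertrophic cells, had a level in 1 expressing well that held 99.7% of its counts. Mmp13, a collagenase of late hypertrophic cells, stood at 0.948 and 1.06 CPM in expressing wells and 40.3 and 0.129 CPM in silent wells. Vegfa, the angiogenic growth factor, was lower in expressing wells, at 3.98 and 4.44 CPM against 48.4 and 28.2 CPM in silent wells (log2 fold change -3.33 ± 1.12). Of the 12 that were widely detected, 7 were higher and 2 lower on both plates. Of all 5886 widely detected genes, 28.95% were higher and 23.7% lower on both plates. The genes of the list thus did not all share a direction.

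Of 8 osteoblast genes tested, Ifitm5 and Phex had an unadjusted p under 0.05, both higher. The 8 genes summed to 180 and 201 CPM in expressing wells, against 88.9 and 35.2 CPM in silent wells. Cpz, a carboxypeptidase that can act on Wnt proteins, was one of the 8, at 81.1 and 160 CPM in expressing wells and 41.8 and 26.8 CPM in silent wells. Cpz reached 50 CPM in 37.1% and 41.9% of expressing wells (intervals 21.5 to 55.1% and 24.5 to 60.9%), against 10.5% and 9.52% of silent wells (2.94 to 24.8% and 3.58 to 19.6%), and its unadjusted p was 0.0776. Phex, a peptidase-like gene of osteocytes and osteoblasts, was counted in only 2 expressing wells of each plate and in no silent well. Bglap, the osteocalcin gene, stood at 37.7 and 3.60 CPM in expressing wells and 38.0 and 2.71 CPM in silent wells, so the groups overlapped.

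**Figure D4:**
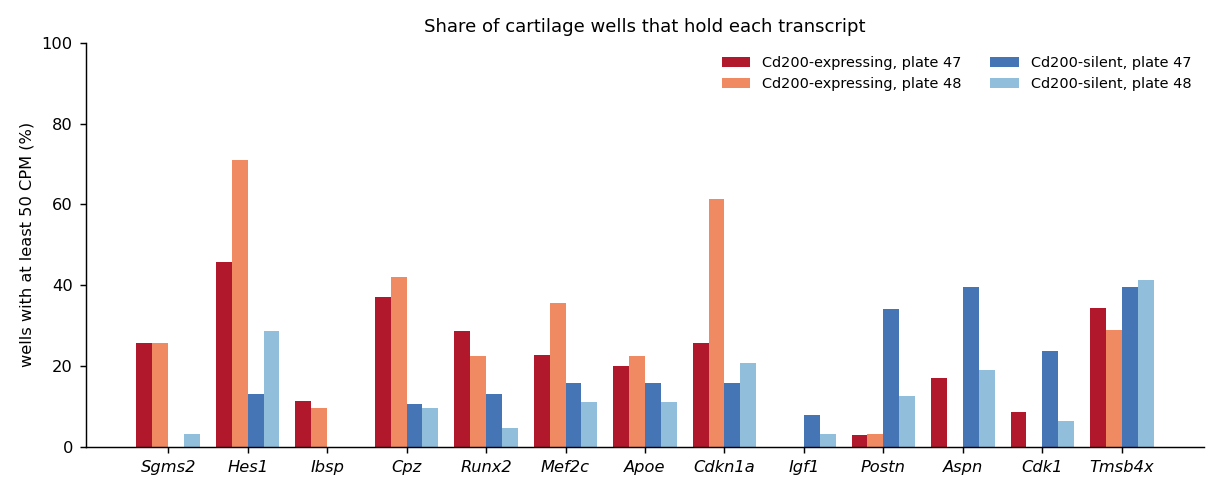
Percentage of cartilage wells with at least 50 CPM of each of 13 genes (y axis, from 0), in Cd200-expressing wells (red and orange, plates 47 and 48) and Cd200-silent wells (dark and light blue); genes were picked after their values were seen. Hes1 (45.7% and 71.0% against 13.2% and 28.6%) and Cpz were more often present in expressing wells on both plates, and Postn and Aspn in silent wells.

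The matrix genes of cartilage themselves summed to 42774 and 41444.5 CPM in expressing wells, against 35336 and 32298 CPM in silent wells, Chad included. That sum was not tested. Of 22 tested, 15 had a positive log2 fold change, against 46.9% of all genes, Chad alone had an unadjusted p under 0.05, and the median was 0.19. Of the 18 that were widely detected, 7 were higher and 2 lower on both plates, against 28.95% and 23.7% of all widely detected genes. Col2a1 differed by 0.28 ± 0.37, Acan by 0.28, Col11a1 by -0.13 ± 0.15, Mia, a small secreted cartilage protein, by 0.16 ± 0.35 and 3110079O15Rik by 0.27 ± 0.35 on the log2 scale. None of these 5 was distinguishable from 0 at its standard error. In the resting zone list none of 11 genes had an unadjusted p under 0.05. Pthlh, the parathyroid hormone-related protein gene of resting cells, stood at 25.0 and 45.3 CPM in expressing wells and 40.8 and 45.0 CPM in silent wells. Apoe, the apolipoprotein E gene, stood at 175 and 197 CPM in expressing wells and 52.4 and 36.3 CPM in silent wells, with a log2 fold change of 2.02 ± 1.18, and 1 well held 65.5% of the expressing counts of plate 47. Prg4, the lubricin gene of the articular surface, stood at 582 and 911 CPM in expressing wells and 161 and 1815 CPM in silent wells, opposite in direction on the 2 plates.

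In the insulin-like growth factor list, 11 of 12 genes tested had a negative log2 fold change, against 53.1% of all genes, and 3 of them, Igf1, Igf2 and H19, an unadjusted p under 0.05, with a median of -0.56. At that p, 1.87% of all genes tested were lower. Of the 10 that were widely detected, 5 were lower and 1 higher on both plates, and their median was -0.46. Of all 5886 widely detected genes, 23.7% were lower and 28.95% higher on both plates. Igf2, the fetal growth factor gene, stood at 2295 and 2090 CPM in expressing wells, against 2821 and 2509 CPM in silent wells (log2 fold change -0.36 ± 0.13). H19, the noncoding RNA imprinted beside Igf2, stood at 1420 and 1435 CPM in expressing wells and 2342 and 1661 CPM in silent wells (-0.56 ± 0.22). Igfbp4 and Igfbp7, binding proteins of the ligands, differed by -0.55 ± 0.37 and -0.18 ± 0.21.

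Of 15 markers of perichondrial and periosteal fibroblasts tested, 10 had a negative log2 fold change, against 53.1% of all genes, Postn and Cxcl12 had an unadjusted p under 0.05, and the median was -0.87. Of the 11 that were widely detected, 8 were lower and 2 higher on both plates, against 23.7% and 28.95% of all widely detected genes. Postn, the gene of the matricellular protein periostin, stood at 5.69 and 10.8 CPM in expressing wells, against 239 and 87.7 CPM in silent wells (log2 fold change -3.95 ± 1.02). It reached 50 CPM in 1 and 1 expressing wells, against 13 and 8 silent wells. Aspn, a leucine-rich matrix protein gene that was not on that list, stood at 70.5 and 2.96 CPM in expressing wells and 383 and 155 CPM in silent wells (-3.36 ± 0.88). Cxcl12, a chemokine of stromal cells, had 3 and 1 counts in expressing wells and 29 and 7 counts in silent wells. The other 5 genes of the list had a positive log2 fold change, none with an unadjusted p under 0.05. They were the type I collagen genes, with Col1a1 at 0.23 ± 0.15 and Col1a2 at 0.08 ± 0.15, and Serping1 at 1.87, Clec3b at 3.51 and Tnxb at 7.07. Clec3b and Tnxb were not widely detected, and neither were Pi16 and Dpt among the 10 with a negative log2 fold change.

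The sum of all 15 markers was dominated by the collagens and was 15559 and 11102 CPM in expressing wells, against 13735 and 10693 CPM in silent wells. Over the 12 markers without the collagens, the well medians were 29.9 and 16.1 CPM in expressing wells and 150 and 31.96 CPM in silent wells. The sum reached 1000 CPM in 1 and 0 expressing wells and in 6 and 1 silent wells. With wells at or above 1000 CPM left out, an alternative added after the data were seen, the log2 fold change of Postn was -2.86 and that of Igf1 was -4.21. Postn is 1 of the 12 markers in that sum, so wells were left out partly by their own Postn level. The value for Postn is therefore a description and no check of its difference. The value for Igf1 is also only a description. All 5 silent wells with Igf1 at 50 CPM held Postn, at 344 to 2531 CPM, and the limit of 1000 CPM need not remove each of them. Tmsb4x, the actin-binding thymosin beta-4 gene, stood at 191 and 201 CPM in expressing wells and 357 and 414 CPM in silent wells (-1.06 ± 0.33).

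Among genes of the cell cycle, 17 of 21 tested had a negative log2 fold change, against 53.1% of all genes, with a median of -3.01 over few counts, and Top2a and Mcm5 had an unadjusted p under 0.05. The summed level of the list was opposite on the plates, at 969 and 1327 CPM in expressing wells and 2341 and 1027 CPM in silent wells. The sum includes the cell cycle inhibitor genes Cdkn1a, described below, and Cdkn1c, so it does not measure division alone. On plate 48, 9 genes of the list had 0 counts in expressing wells, against 6 in silent wells. On plate 47 these were 3 and 0 genes. Only 5 of the 21 were widely detected, and their median was -0.54. Top2a, the DNA topoisomerase of dividing cells, had 2 and 1 counts in expressing wells and 343 and 78 counts in silent wells, where 4 and 2 wells held them. Cdk1, the mitotic kinase gene, reached 50 CPM in 3 of 35 and 0 of 31 expressing wells and in 9 of 38 and 4 of 63 silent wells. Cdkn1a, which encodes the cell cycle inhibitor p21, stood at 115 and 377 CPM in expressing wells, against 39.8 and 94.9 CPM in silent wells. It reached 50 CPM in 25.7% and 61.3% of expressing wells and 15.8% and 20.6% of silent wells, with a log2 fold change of 1.72 ± 0.99 that did not pass.

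Of 22 genes of glycolysis and the hypoxia response tested, 18 had a positive log2 fold change, against 46.9% of all genes, the median was 0.52, and Fam162a alone had an unadjusted p under 0.05. Of the 18 that were widely detected, 12 were higher on both plates and none was lower on both, where 28.95% of all 5886 widely detected genes were higher on both plates and 23.7% lower. Fam162a, a mitochondrial hypoxia-inducible gene, stood at 708 and 751 CPM in expressing wells and 401 and 446 CPM in silent wells (0.71 ± 0.24). Bnip3, a mitophagy receptor gene induced by hypoxia, stood at 369 and 303 CPM in expressing wells and 128 and 124 CPM in silent wells (1.37 ± 0.82). Bnip3 reached 50 CPM in 60.0% and 64.5% of expressing wells, against 26.3% and 34.9% of silent wells. Ldha, lactate dehydrogenase A, stood at 718 and 732 CPM in expressing wells and 409 and 628 CPM in silent wells. Depth per well was also higher in the expressing wells, and its part in this was not tested.

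Of 20 immediate-early and heat shock genes, which digestion and sorting can induce, 3 had an unadjusted p under 0.05, all higher, and the median was 0.16. At that p, 1.17% of all genes tested were higher. All 20 were widely detected, and 11 were higher and 1 lower on both plates, against 28.95% and 23.7% of all widely detected genes. Fos stood at 3409 and 5021 CPM in expressing wells and 2943 and 3524 CPM in silent wells (0.28 ± 0.10). Zfp36, which encodes an mRNA-destabilising protein, stood at 1349 and 2151 CPM in expressing wells and 942 and 1200 CPM in silent wells (0.60 ± 0.20). Hspb1, a small heat shock protein gene, stood at 123 and 212 CPM in expressing wells and 35.5 and 19.2 CPM in silent wells (2.40 ± 0.90). Egr1 and Ier2 differed by 0.16 ± 0.24 and -0.10 ± 0.42.

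**Figure D5:**
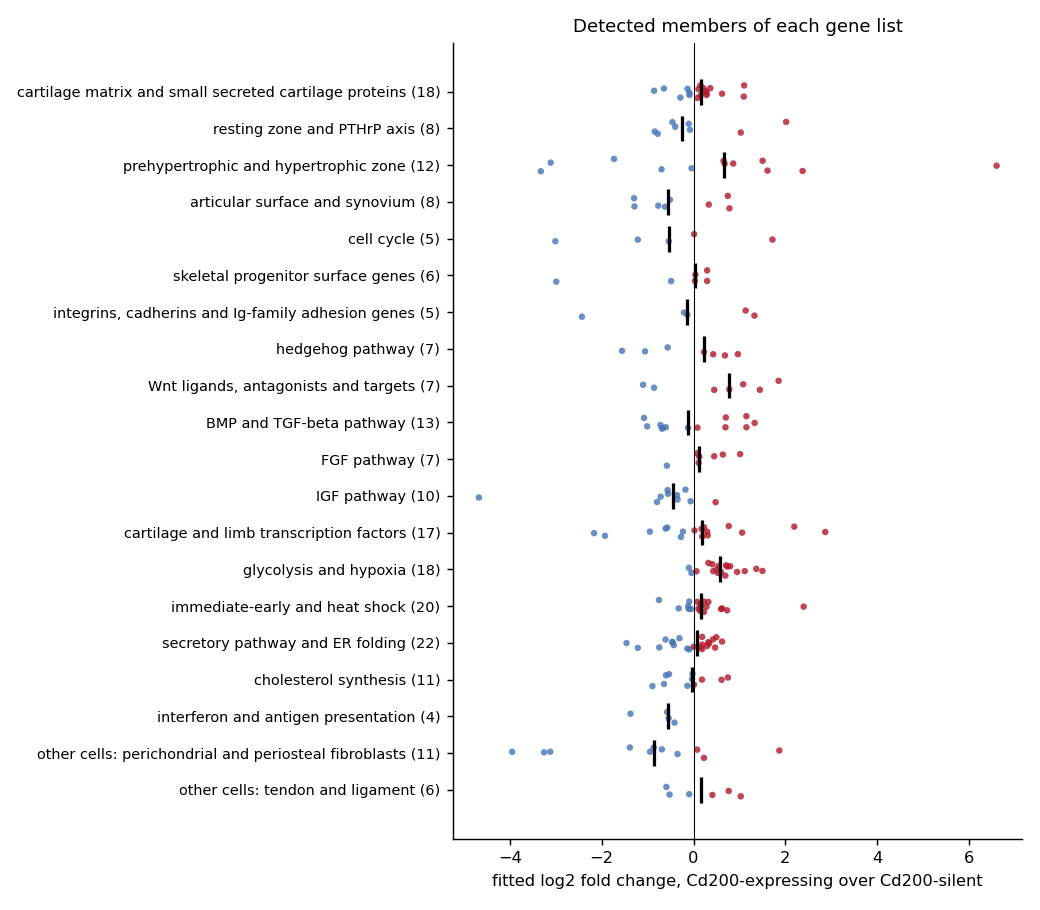
Fitted log2 fold change of Cd200-expressing over Cd200-silent wells (x axis) for the widely detected members of each gene list (number in brackets); each dot is a gene, red where higher and blue where lower, and black bars are medians. Glycolysis and hypoxia genes lie mostly right of 0, fibroblast and insulin-like growth factor genes mostly left, and most other lists straddle 0, the median of all widely detected genes being -0.02.

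Of 22 transcription factors of cartilage and limb, Nfatc2 was higher and Shox2 and Hoxa10 lower in expressing wells at an unadjusted p under 0.05. Over all genes tested, 1.17% were higher and 1.87% lower at that p. Nfatc2, a calcium-regulated factor, stood at 28.6 and 69.2 CPM in expressing wells and 2.53 and 10.6 CPM in silent wells (2.87 ± 1.17). Hoxa10, a positional gene of the limb, stood at 48.3 and 28.8 CPM in expressing wells and 157 and 121 CPM in silent wells (-1.93 ± 0.52). Shox2, a homeobox gene that controls growth of the proximal limb skeleton, stood at 18.8 and 27.7 CPM in expressing wells and 94.0 and 102 CPM in silent wells (-2.17 ± 0.68). Each of these had the same direction on both plates.

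Other surface genes used to define skeletal progenitors were mostly sparse in both groups. Of 15 tested, Vcam1 and Cd34 were lower at an unadjusted p under 0.05 and the median was -0.25. At that p, 1.87% of all genes tested were lower. Itgav, the integrin alpha-V subunit, stood at 98.2 and 56.5 CPM in expressing wells and 56.2 and 61.6 CPM in silent wells. Nt5e, the ectonucleotidase CD73, stood at 37.7 and 44.2 CPM in expressing wells and 24.3 and 42.6 CPM in silent wells. Eng, which encodes endoglin, a TGF-beta co-receptor, was counted in 2 and 3 expressing wells and 3 and 1 silent wells. Thy1, a surface glycoprotein used to gate progenitors, was counted in 2 and 0 expressing wells and 4 and 1 silent wells. Enpep, the gene of the 6C3 antigen, had 46 and 84 counts in expressing wells, from 3 and 2 wells, and 0 and 2 counts in silent wells.

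Receptor genes of the CD200 family were at or near 0. Cd200r1 and Cd200r4 had 0 counts in all 167 wells compared, and Cd200r3 was counted in 3 expressing wells of plate 47 alone. Rasa1, through which the receptor signals, and Cd47 and Cd276, other inhibitory surface ligands, were tested, and none had an unadjusted p under 0.05; Cd47 stood at 102 and 54.8 CPM in expressing wells and 76.8 and 85.8 CPM in silent wells. Only Lgals9 of the 6 tested in that list did, in the lower direction.

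In the hedgehog list none of 10 genes had an unadjusted p under 0.05, and Ptch1, the hedgehog receptor and target, stood at 171 and 118 CPM in expressing wells and 95.5 and 75.0 CPM in silent wells. In the Wnt list only Ror2 of 19 did. Wif1, a secreted Wnt inhibitor, stood at 1319 and 1497 CPM in expressing wells and 781 and 1259 CPM in silent wells. Frzb, another secreted antagonist, stood at 196 and 164 CPM in expressing wells and 50.4 and 92.9 CPM in silent wells. Of 25 genes of the BMP and TGF-beta pathways Bmp3 was higher and Chrdl1 lower, and of 16 FGF pathway genes none had an unadjusted p under 0.05. In the interferon and antigen presentation list B2m, the light chain of class I molecules, was the single one of 9, at 828 and 977 CPM in expressing wells and 1489 and 1042 CPM in silent wells. Among genes of the secretory pathway none of 22, and of cholesterol synthesis none of 15, had an unadjusted p under 0.05.

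The wells below the Cd200 minimum, 6 and 7 per plate, lay nearer to the silent wells for Hes1, at 96.7 and 67.7 CPM, Ibsp, at 5.18 and 2.57 CPM, and Chad, at 746 and 1183 CPM. They lay nearer to the expressing wells for Igf1, at 0 and 0.857 CPM, and Itm2a, at 4639 and 4999 CPM. So few wells give no more than a description.

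The same contrast was taken in the 473 other kept wells, of which 106 held Cd200 at the minimum and 326 held none, and the difference between the contrasts was tested. No gene passed the edgeR test of the difference, 0% of 13537, and 325 genes (2.4%) had an unadjusted p under 0.05. DESeq2 called 14 (0.103%), 9 higher (0.0665%) and 5 lower (0.0369%), and edgeR after thinning called 4 (0.0603%), which were 3110079O15Rik, Col2a1, Mia and Spp1, all with a lower contrast in cartilage wells. The contrast of Col2a1 in cartilage wells, given above, was close to 0, whereas in other wells Col2a1 stood at 2979 and 3931 CPM where Cd200 was expressed, against 417 and 1081 CPM where it was silent. The difference of the contrasts, cartilage minus other wells, was -1.93 ± 0.53 on the log2 scale. The cartilage minimum bounds such genes from below in one set of wells and from above in the other, and 21 and 31 of the other wells of plates 47 and 48 had a cartilage sum between 2000 and 4000 CPM. Spp1, the osteopontin gene, stood at 599.6 and 441 CPM in expressing and 446 and 209 CPM in silent cartilage wells, but at 2733 and 2927 CPM in expressing and 165 and 211 CPM in silent other wells. Ibsp, whose values in cartilage wells are given above, stood at 865 and 949.7 CPM in other expressing wells and 23.5 and 5.79 CPM in other silent wells, and the difference of its contrasts was 0.02 ± 0.59. For Igf1 the difference of the contrasts was -3.16 ± 0.71 (unadjusted p = 0.00198, adjusted p = 1).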

How the data were processed

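Single cells of 2 mice were sorted into 1 plate per animal, and cDNA was made by template switching and PCR, per the labels' protocols. The authors deposited counts for 24866 genes in 658 wells. The build was mm10, per the submitters' processing notes; no source used here names the aligner, the counter or any collapse of molecular identifiers, so intervals cover counting error only. Members and gene lists were chosen with earlier results of these data known.

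CPM were computed here. Kept wells were summed per plate into 6 classes (cartilage or other, by expressing, below minimum or silent), 12 sums in all. The 4 cartilage sums compared held 3947495 to 7764182 counts. They were fitted with edgeR 4.0.16 in R 4.3.3 (TMM, filterByExpr, glmQLFit), with plate as a block because the sums of 1 plate come from 1 animal. The fit left 5 residual degrees of freedom, shared by all classes, and p-values were adjusted by Benjamini-Hochberg. The 5 genes that chose the wells were left out of the calls. Standard errors are the log2 fold change over the root of F. The test was checked on simulated data; DESeq2 1.42.0 was an alternative. Named genes were the 8 of lowest p per direction, with the same sign on both plates, and described members of each list. No doublet caller was run, since wells were sorted singly. Barcodes recur on both plates (280 names), and no 2 wells were identical. Coordinates come from GENCODE vM21.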

Additional observations from a re-analysis of the deposited data

How the results depend on the processing

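No gene passed in the edgeR fit or in 12 of 14 alternatives that give a test; DESeq2's Wald test called 44 genes (giving no adjusted p for 3151) and thinning to 10000 counts called 5. For the difference from other wells, DESeq2 called 14 and thinning 4, and the other 4 alternatives called 0. Without the plate as a replicate block, 0 genes were called and 545 had an unadjusted p under 0.05. Leaving out a plate leaves 1 animal and no residual test for this contrast, so it gave values only. For 36 named genes, 503 values with a test were recomputed; 485 kept their direction and did not pass, 17 passed, and Spp1 reversed to -0.80 at a cartilage minimum of 10000 CPM. Of 71 values from 1 plate alone, which have no test, all kept their direction and 21 moved by more than the spread between plates. The count of 21 does not measure dependence on 1 animal, because that spread came from the same 2 plate ratios. Those were plain CPM ratios, whereas the fitted value was normalised by TMM. That all kept their direction is no check, because 16 of the 36 genes were named for having the same sign on both plates. Genes described above as opposite on the plates, such as Prg4, were not among the 36. Over 5809 genes counted in all 4 sums, 52.6% had the same sign on both plates. Sizes of genes that kept their direction still varied: at the 10000 CPM minimum the log2 fold change was 3.55 for Ibsp, 0.54 for Cdk2ap2, 1.03 for Hes1 and -1.58 for Vegfa, thinning gave -7.10 for Igf1, and capping the highest well gave -0.27 for Cd34. With cartilage classes alone in the fit, 86 of 10766 genes had an unadjusted p under 0.05. The cause was not tested.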
